A study of Mus musculus with 8 samples.

Results

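The endoplasmic reticulum (ER) stress response was described in the livers of mice that lack miR-33 in hepatocytes, by 34 of the 17810 genes of the count table. The 34 members were taken by gene symbol, and each was found once: 14 ER chaperones and folding factors, 8 genes of ER-associated degradation (ERAD), 4 transducers of the response and 8 genes of the integrated stress response. The RNA-Seq libraries, 1 per liver, came from male mice, 4 of each genotype (WT and HKO). HKO mice carry loxP-flanked miR-33 alleles that are removed by Cre recombinase expressed under the albumin promoter, a hepatocyte promoter; whether it acts in bile duct cells was not analysed here. The WT mice were their littermates, and both genotypes received CD-HFD, a diet rich in fat and without added choline, for 3 months. Feeding began at 8 weeks, and the mice were 5 months old at collection. The genotype was taken from the labels, since Mir33 itself was not analysed here.

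Proteins that enter the secretory pathway fold in the ER, with the help of chaperones and of enzymes that form disulfide bonds, and proteins that fail to fold are returned to the cytosol and degraded. When unfolded proteins accumulate, sensors in the ER membrane start the unfolded protein response: IRE1 (encoded by Ern1) splices the mRNA of Xbp1 to give an active transcription factor, ATF6 is cleaved to release another, and PERK (encoded by Eif2ak3) phosphorylates eIF2 alpha, which lowers general translation and raises that of ATF4. XBP1 and ATF6 raise chaperone and ERAD genes, and ATF4 raises genes of amino acid supply, Ddit3 and a feedback phosphatase subunit. The liver secretes large amounts of plasma proteins and lipoproteins, and hepatocytes are rich in ER.

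Several members are known to share promoter elements, and their sites are shown here because members with the same element are followed through the results. RefSeq promoters, from 250 bases before to 50 bases after the gene start (GRCm38.p6), were given for 29 of the 34 members; the others are Manf, Hyou1, Atf6, Derl1 and Ppp1r15b. The ER stress element (ERSE), written as CCAAT, 9 bases of any kind, then CCACG, and searched on both strands, was found in 9 of 29 members (31%) against 0.119% of all 32851 promoters of the table and 0.202% of the 9921 tested genes with a promoter. By role, 7 of the 12 chaperones and 2 of the 7 ERAD genes with a promoter had it, and 0 of the 3 transducers and 0 of the 7 integrated stress response genes. The shorter ERSE-II (ATTGG, any base, then CCACG) was found in Dnajb11 and Herpud1, against 0.0365% of all promoters. In the following sites the fixed letters are in capitals, and each is printed on the strand that carries the element. They are from the chaperones Hspa5, Creld2 and Canx and the ERAD genes Derl3, Syvn1 and Herpud1, the last of these with ERSE-II.
Hspa5 (chr2:34772021-34772047, plus strand): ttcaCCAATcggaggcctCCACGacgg
Creld2 (chr15:88819516-88819542, minus strand): tggaCCAATtgaggctcgCCACGagaa
Canx (chr11:50325796-50325822, minus strand): ttgaCCAATcaccacgctCCACGaaga
Derl3 (chr10:75893238-75893264, minus strand): ctagCCAATggggaagtcCCACGgtag
Syvn1 (chr19:6046528-6046554, plus strand): gcaaCCAATcggcggtagCCACGggaa
Herpud1 (chr8:94386373-94386391, plus strand): gctgATTGGgCCACGttgg

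The element bound by C/EBP and ATF4 (TGATG, any base, then AA, on either strand) was found in 5 of 29 members (17.2%), against 3.97% of all promoters and 2.68% of the tested genes with a promoter. Of these, 4 were among the 7 integrated stress response genes with a promoter (Atf3, Trib3, Asns and Chac1), and the other was Herpud1. Another unfolded protein response element (TGACG followed by TGG) was found in 0 of 29 members and in 0.676% of all promoters. These letters show where a match lies, not that a factor binds there. The sites of Atf3, a stress-induced repressor, and Trib3, a pseudokinase that ATF4 induces, are shown as the examples from genes described in the results.
Atf3 (chr1:191183432-191183447, plus strand): ttggTGATGCAAgtgc
Trib3 (chr2:152344035-152344050, plus strand): cggcTGATGTAAacct

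The deposited values are estimated counts per gene, and totals per liver ran from 12174339 to 18735785. Levels are given in CPM, in which each liver's counts were divided by its TMM-scaled library size and brought to one common total, and 3 counts correspond to 0.149 to 0.255 CPM. Counts of the 12395 genes tested were compared by the quasi-likelihood test of edgeR, with p-values adjusted by the Benjamini-Hochberg method, and a gene was called at an adjusted p under 0.05. By this rule 5.03% of the genes tested were called, 206 higher and 418 lower in HKO livers. With library totals in place of TMM the split was 119 higher and 621 lower. The libraries were numbered 55 to 58 for HKO and 59 to 62 for WT, so that genotype and order number cannot be told apart. WT replicate 4 stood apart from the other WT livers in the chaperones, as given with them, and the fold changes are therefore also given without it. HKO replicate 2 stood apart in bile duct markers, with 16.9 CPM of Krt19 against at most 1.08 CPM in the other 7 livers.

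All 34 members passed the filter on low counts. In HKO livers 1 member was called higher, Xbp1, and 0 were called lower, where 1.66% and 3.37% of all genes tested were called. Without adjustment, 5 members had a p under 0.05 (Xbp1, Ern1, Eif2ak3, Sel1l and Atf3), where 19.8% of all genes tested did. DESeq2 called 2 members, Xbp1 higher and Sel1l lower, with 8.18% of all genes called, and limma-voom called Xbp1 alone, with 4.86% of all genes called. The median log2 fold change of the members was 0.015, against 0.0090 for all genes tested, with 18 members above and 16 below 0, and it was -0.068 with library totals in place of TMM. The 4 HKO livers lay entirely on one side of the 4 WT livers for 3 members (Xbp1 above, Atf3 and Sel1l below), and 12.5% of all genes tested were separated in this way.

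**Figure D1:**
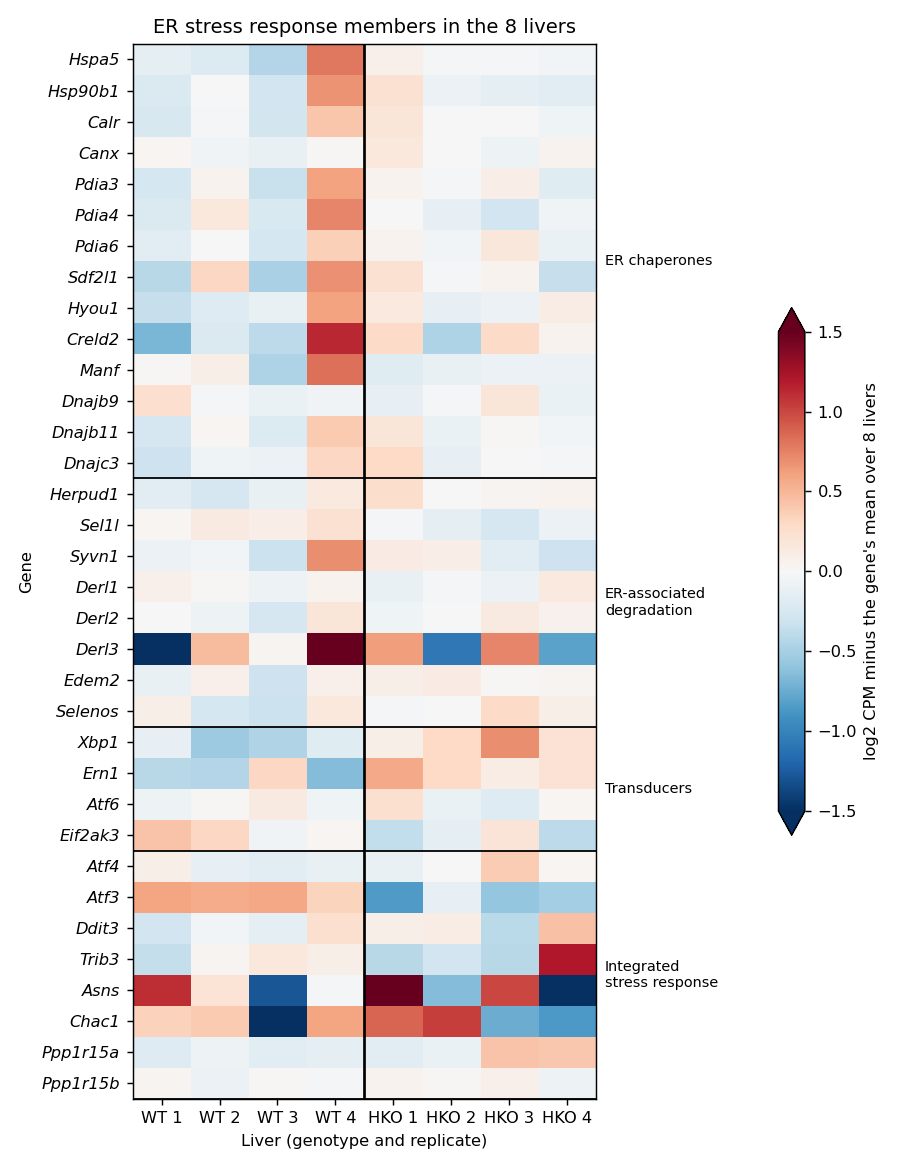
Each row is 1 of the 34 members and each column 1 liver, with WT to the left and HKO to the right of the vertical line; the color is log2 CPM minus the gene's own mean over the 8 livers, cut at 1.5 in either direction. Most chaperones are highest in WT 4, while Xbp1 is above its mean in the HKO livers and Atf3 is below it.

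Among the transducers, Xbp1 rose in HKO livers. Its level was 151, 113, 120 and 145 CPM in WT replicates 1 to 4 and 175, 203, 266 and 192 CPM in HKO replicates 1 to 4. The lowest HKO liver was above the highest WT liver. The WT mean was 133 ± 18.6 CPM and the HKO mean 209 ± 39.9 CPM (SD, n = 4). The log2 fold change was 0.66 (SE 0.14, adjusted p = 0.0233, edgeR), and DESeq2 gave an adjusted p of 0.000362. The call was lost without WT replicate 2 (adjusted p = 0.0812) and without WT replicate 3 (adjusted p = 0.0617), and was kept in the other 6 fits that left out 1 liver, among them the fit without WT replicate 4 (adjusted p = 0.0354). These are counts of the whole gene (chr11:5520641-5525994, GRCm38), so spliced and unspliced Xbp1 mRNA were not told apart. In bulk liver, more cells of a type and more RNA per cell cannot be told apart either.

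Ern1, which encodes the kinase and RNase that splices Xbp1, was at 11.3, 11.1, 18.7 and 9.60 CPM in WT and at 22.5, 18.5, 16.3 and 17.6 CPM in HKO livers. WT replicate 3 lay within the HKO range, and the other 3 WT livers lay below it. The log2 fold change was 0.56 (SE 0.20), which did not pass the test (adjusted p = 0.144, edgeR), and without WT replicate 3 it was 0.81 with an adjusted p of 0.0109.

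Eif2ak3, which encodes the eIF2 alpha kinase PERK, was at 19.4, 17.9, 13.97 and 14.7 CPM in WT and at 11.2, 13.1, 16.5 and 11.0 CPM in HKO livers. The genotypes overlapped through HKO replicate 3, and the log2 fold change was -0.35 (SE 0.15, adjusted p = 0.242, edgeR). Atf6 ranged from 126 to 145 CPM in WT and from 115 to 156 CPM in HKO livers, with a log2 fold change of -0.0021 (SE 0.099). The sensors thus had estimates above 0, below 0 and near 0, and none of these 3 passed the test. The median of the 4 transducers was 0.28. Per kilobase of the longest coding transcript, the mean level in WT livers was 62.2 CPM for Xbp1, 18.3 CPM for Atf6, 3.66 CPM for Eif2ak3 and 1.83 CPM for Ern1. The Ern1 transcript runs beyond the 3' end of the gene as counted. Its value is therefore too low, and its gap to Eif2ak3 is uncertain.

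**Figure D2:**
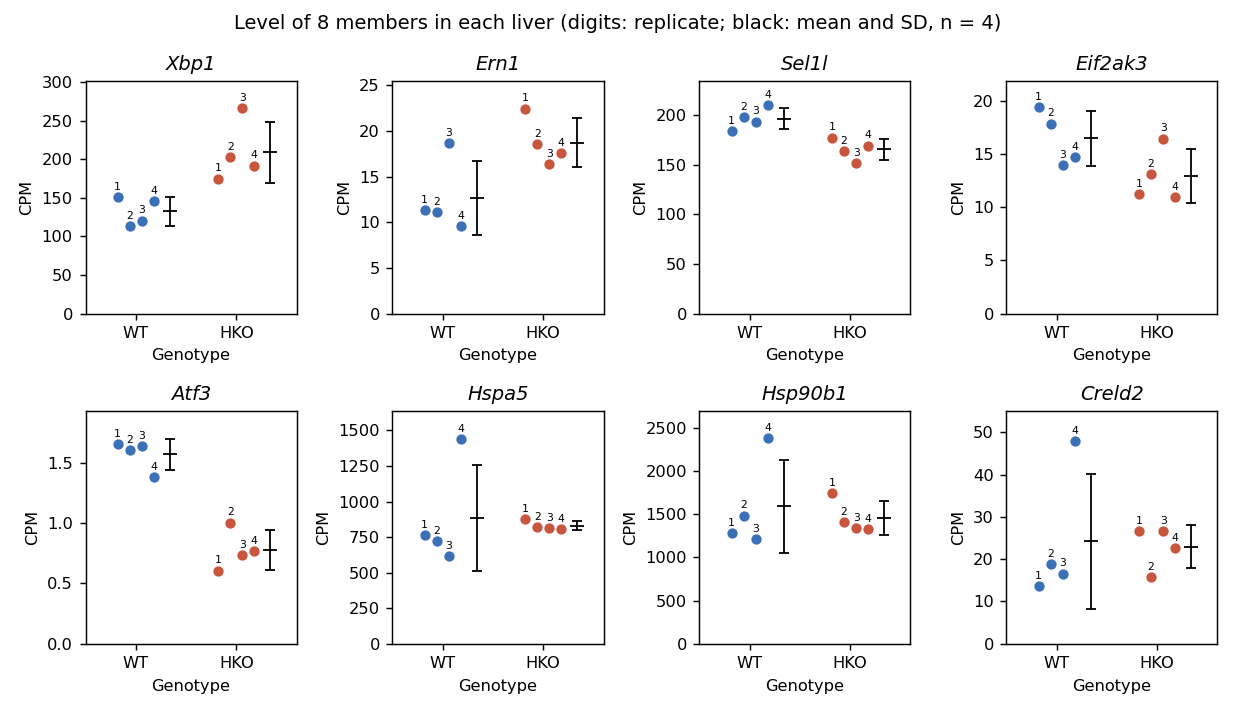
CPM of 8 members on linear axes from 0, by genotype, with 1 point per liver marked by its replicate number and the mean with its SD beside them (n = 4). Xbp1, Sel1l and Atf3 do not overlap between the genotypes, and Hspa5, Hsp90b1 and Creld2 have a single high WT liver, replicate 4.

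The ERAD genes included Sel1l, the adaptor of the HRD1 ubiquitin ligase complex that recruits misfolded proteins. Sel1l was at 184, 198, 193 and 210 CPM in WT and at 177, 163, 152 and 169 CPM in HKO livers, so that every HKO liver was below every WT liver. The log2 fold change was -0.25 (SE 0.077, adjusted p = 0.0956, edgeR), which did not pass the test. DESeq2 gave an adjusted p of 0.0411, and library totals in place of TMM gave 0.0398.

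Syvn1, the HRD1 ubiquitin ligase itself, was at 19.8, 20.4, 16.8 and 34.2 CPM in WT and at 22.9, 22.5, 18.9 and 16.9 CPM in HKO livers. Herpud1, a membrane protein of the same complex, was at 211, 198, 219 and 260 CPM in WT and at 282, 237, 243 and 244 CPM in HKO livers, and its log2 fold change was 0.18 (SE 0.098, adjusted p = 0.35, edgeR). Both were highest among the WT livers in replicate 4.

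Derl3, a derlin that is induced by ER stress, varied more than any other ERAD member: it was at 1.74, 7.47, 5.52 and 16.4 CPM in WT and at 8.30, 2.55, 8.90 and 3.06 CPM in HKO livers. The fold change of Derl3 was -0.44 on the log2 scale, with an SE of 0.71. The other derlins varied little, with 91.7 to 101 CPM of Derl1 in WT and 89.5 to 106 CPM in HKO livers, and 89.1 to 121 CPM of Derl2 in WT and 102 to 117 CPM in HKO livers. Edem2, a mannosidase-like protein that marks glycoproteins for removal, ranged from 25.0 to 32.6 CPM in WT and from 31.4 to 33.6 CPM in HKO livers. Selenos, a selenoprotein of the ERAD machinery, ranged from 30.9 to 43.1 CPM in WT and from 37.8 to 47.4 CPM in HKO livers. Of the 8 ERAD genes 0 passed edgeR's test in either direction, with 1 at an unadjusted p under 0.05 and 1 called by DESeq2, Sel1l in both cases. Their median log2 fold change was 0.015.

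In the integrated stress response, Atf3 was at 1.65, 1.61, 1.64 and 1.38 CPM in WT and at 0.607, 1.00, 0.733 and 0.766 CPM in HKO livers. All HKO livers lay below all WT livers. The WT mean was 1.57 ± 0.128 CPM and the HKO mean 0.777 ± 0.166 CPM (SD, n = 4), and the log2 fold change of -1.02 (SE 0.28) had an adjusted p of 0.0639 in edgeR, 0.0812 in DESeq2 and 0.0485 with library totals in place of TMM. These levels are a few times the 3-count floor, so counting error is part of the spread.

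Atf4, the transcription factor of this response, was at 64.0, 54.9, 53.3 and 55.7 CPM in WT and at 55.5, 60.5, 78.2 and 61.1 CPM in HKO livers, with a log2 fold change of 0.16 (SE 0.11). ATF4 is raised mainly by translation, which these counts do not measure. Ddit3, which encodes the transcription factor CHOP, ranged from 2.81 to 4.08 CPM in WT and from 2.59 to 4.68 CPM in HKO livers. The genotypes overlapped for both.

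Trib3 was at 3.22, 4.26, 4.62 and 4.40 CPM in WT and at 3.10, 3.40, 3.10 and 9.53 CPM in HKO livers. HKO replicate 4 alone put the HKO mean above that of WT: the log2 fold change was 0.19 (SE 0.36) with it and -0.37 without it. Asns, asparagine synthetase, was close to the floor, at 1.57, 0.838, 0.298 and 0.723 CPM in WT and at 2.43, 0.463, 1.46 and 0.170 CPM in HKO livers, the last of them below the 3-count floor of its library. Chac1, which degrades glutathione, ranged from 0.547 to 2.56 CPM in WT and from 0.936 to 3.47 CPM in HKO livers. The genotypes overlapped for both, with SEs of 0.68 and 0.54 on the log2 scale.

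Ppp1r15a, the inducible subunit that directs dephosphorylation of eIF2 alpha, was at 6.86, 7.47, 7.06 and 7.10 CPM in WT and at 7.02, 7.33, 10.6 and 10.4 CPM in HKO livers. HKO replicates 3 and 4 were above the others, and the log2 fold change was 0.31 (SE 0.16, adjusted p = 0.316, edgeR). Its constitutive counterpart Ppp1r15b ranged from 169 to 185 CPM in WT and from 171 to 190 CPM in HKO livers, with the smallest SE of the 34 members (log2 fold change 0.034, SE 0.071). Of the 8 integrated stress response genes, 0 passed the test in edgeR, DESeq2 or limma-voom, and 1 had an unadjusted p under 0.05 in edgeR (Atf3). The other 7 had a log2 fold change above 0 in the fit of 8 livers, and the median of the 8 was 0.18. Of these 7, Ppp1r15b was below 0 with library totals, Trib3 in limma-voom, and Ddit3, Trib3, Asns and Chac1 in at least 1 fit that left out a liver.

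The 14 chaperones differed between the genotypes by less than the spread between livers: 0 were called in edgeR, DESeq2 or limma-voom, 0 had an unadjusted p under 0.05, and 0 were without overlap. Their median log2 fold change was -0.055. Hspa5, which encodes BiP, the main Hsp70 chaperone of the ER, was at 762, 724, 615 and 1440 CPM in WT and at 877, 823, 816 and 807 CPM in HKO livers. Hsp90b1, the ER Hsp90 (GRP94), was at 1282, 1484, 1215 and 2382 CPM in WT and at 1741, 1405, 1341 and 1330 CPM in HKO livers. Creld2, a secreted ER stress-inducible protein, was at 13.6, 18.8, 16.6 and 48.0 CPM in WT and at 26.7, 15.8, 26.6 and 22.6 CPM in HKO livers. In each of the 3, WT replicate 4 was above the other 7 livers.

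The same liver was the highest of all 8 for 12 of the 14 chaperones, the exceptions being Canx (HKO replicate 1) and Dnajb9 (WT replicate 1). It was the highest for 16 of the 34 members (47.1%) and for 10.9% of all genes tested. For the other 7 livers the share of members ran from 0 to 14.7%. Among the HKO livers alone, replicate 1 was the highest for 10 of the 14 chaperones (71.4%) and for 26.8% of all genes tested. These counts were made after the values were seen. By the numbers in the sample titles, WT replicate 4 (4362) and HKO replicate 1 (4360) lie next to each other, below the other HKO mice (4373, 4375 and 4376) and the other WT mice (4393, 4395 and 4397). The description of every WT liver carries 4393, which is the title number of WT replicate 1 alone. For WT replicates 2, 3 and 4 the title and the heading of the counts carry 4395, 4397 and 4362, so this mismatch is not particular to WT replicate 4. What these numbers stand for is not given in the sources used here, and their part in the result was not tested. The level in WT replicate 4 was 2.94 times the mean of the other 3 WT livers for Creld2, 2.06 times for Hspa5, 1.89 times for Manf, a secreted chaperone cofactor, 1.79 times for Hsp90b1 and 1.78 times for Sdf2l1, a partner of ER J proteins. For Hyou1, an Hsp110-like nucleotide exchange factor, it was 1.76 times, and for the disulfide isomerases Pdia4, Pdia3 and Pdia6 it was 1.75, 1.71 and 1.42 times. For Calr, a lectin chaperone of glycoproteins, it was 1.51 times, for the J protein Dnajb11 1.45 times, and for Dnajc3, a J protein that also inhibits PERK, 1.38 times. Canx, the membrane-bound lectin chaperone, was at 1.04 times and Dnajb9, a J protein that acts on IRE1, at 0.931 times the other WT livers.

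By role, the median of this ratio was 1.73 for the chaperones, 1.23 for the ERAD genes, 0.897 for the transducers and 0.992 for the integrated stress response genes, and it was 0.989 for all genes tested. Derl3 had the highest ratio of all members, 3.35, and Syvn1 was at 1.80. Among the 11 members with ERSE or ERSE-II in the promoter, WT replicate 4 was the highest liver for 9, and the median ratio was 1.51. Among the 18 members whose promoter had neither, it was the highest for 5, and the median ratio was 1.11. These sets also differ in role, as most members with an element are chaperones, so element and role cannot be told apart. Of the chaperones whose promoter had neither, Sdf2l1 was at 1.78, Pdia4 at 1.75, Pdia3 at 1.71 and Dnajb9 at 0.931 times the other WT livers. The chaperones with an element ran from 1.04 (Canx) to 2.94 (Creld2) times. Where 1 mismatch is allowed, Pdia3 and Pdia4 match ERSE, and Sdf2l1 and Dnajb9 do not. Sel1l, Derl2 and Ddit3 then match as well, and they were at 1.1, 1.22 and 1.32 times the other WT livers. Xbp1 was at 1.13, Atf4 at 0.970, Atf6 at 0.933, Eif2ak3 at 0.861 and Ern1 at 0.700 times the other WT livers. Among the members, the high level in this liver was thus seen in chaperones and some ERAD genes, and not in the sensors. Other genes of the pathway are given below.

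**Figure D3:**
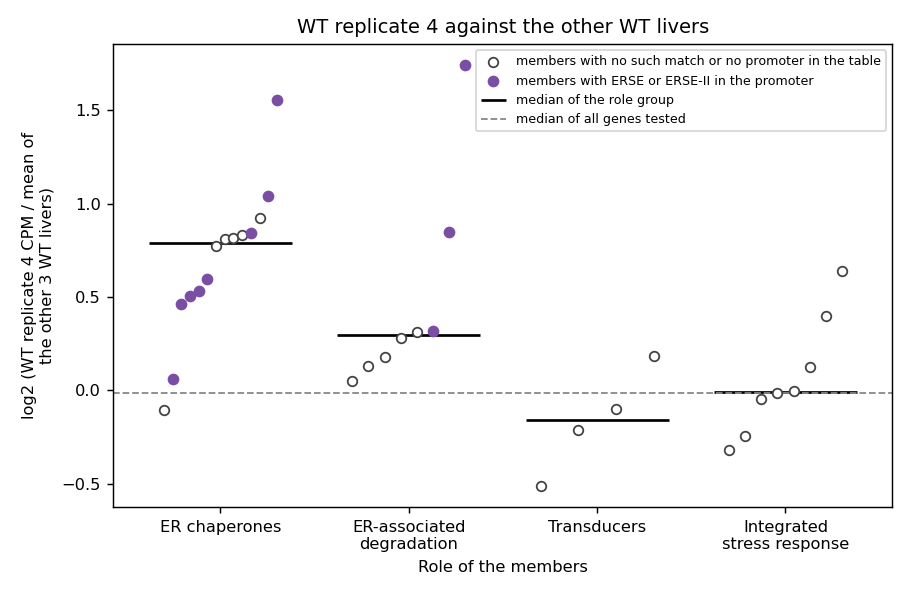
The log2 ratio of the CPM in WT replicate 4 to the mean CPM of the other 3 WT livers, with 1 point per member by role, filled where the promoter holds ERSE or ERSE-II. Horizontal bars are the medians of the role groups and the dashed line is the median of all genes tested; of the chaperones, Dnajb9 alone lies below 0.

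Without WT replicate 4, the chaperones stood otherwise. This liver was singled out because most chaperones were highest there. Leaving it out therefore raises their estimates and narrows their WT spread by construction, which does not hold for all genes tested. The log2 fold change of Hspa5 went from -0.091 (SE 0.24) to 0.25 (SE 0.095). That of Hsp90b1 went from -0.13 (SE 0.21) to 0.13 (SE 0.12), and that of Creld2 from -0.078 (SE 0.43) to 0.49 (SE 0.19). Pdia3, Sdf2l1, Hyou1, Syvn1 and Derl3 also turned from below to above 0. The median over the 34 members became 0.17, against 0.0048 for all genes tested in common with the fit of 8 livers, and 26 members were above 0 in place of 18. None of the chaperones was called there (the lowest adjusted p was 0.186, for Hspa5), and Xbp1 remained the only member called, with 4.80% of the genes called. Hspa5 and Herpud1 were then without overlap, above in HKO, so that 5 members (14.7%) were separated, where 18.5% of all genes tested were. The median of the 14 chaperones went from -0.055 to 0.16, so their direction as a group changed when 1 WT liver was left out. The scaling mattered as well. Calr, Canx, Pdia6, Dnajb11 and Dnajc3, the chaperones above 0 in the fit of 8 livers, were below 0 with library totals in place of TMM.

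**Figure D4:**
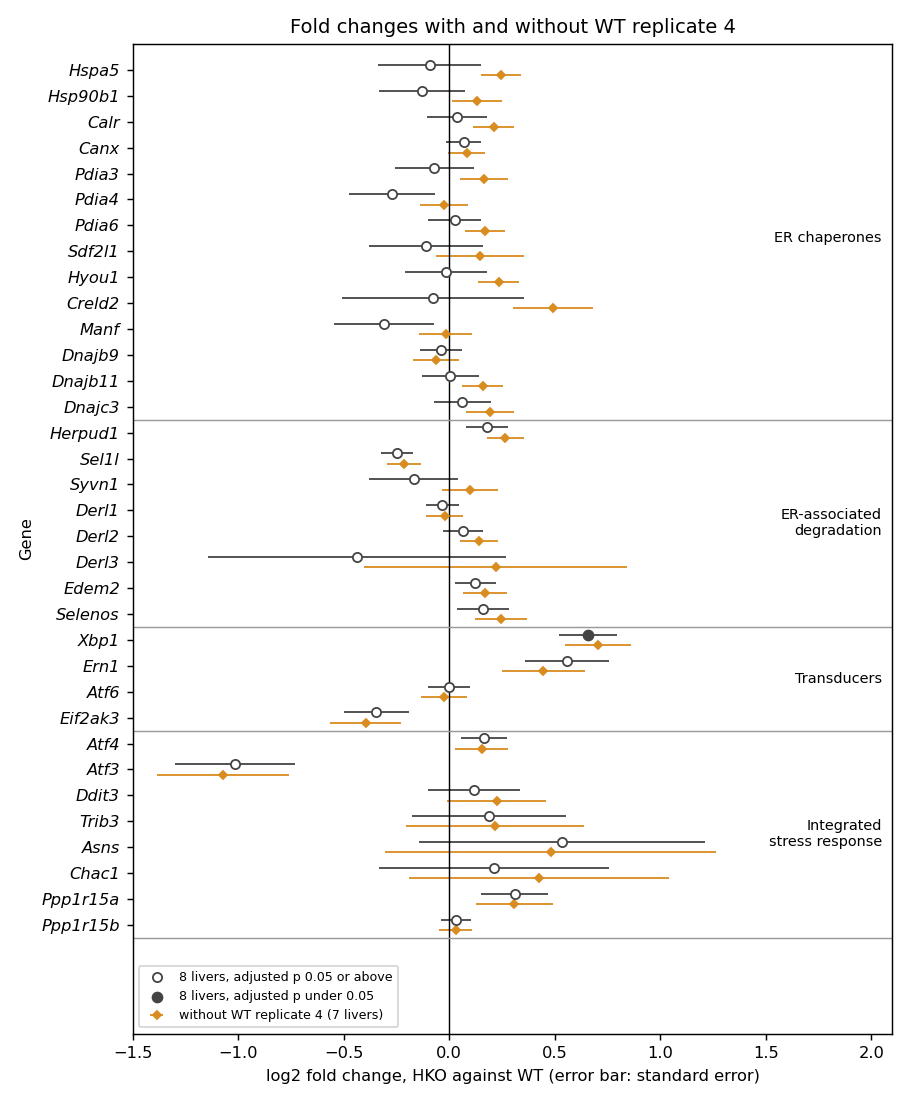
Log2 fold change of each member in HKO against WT livers with its standard error, from all 8 livers (circles, filled where the adjusted p was under 0.05) and without WT replicate 4 (diamonds). Xbp1 alone is filled, and most chaperones lie further to the right without WT replicate 4.

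Manf was at 43.8, 46.0, 47.0 and 47.1 CPM in the HKO livers and at 50.4, 53.0, 36.2 and 88.2 CPM in the WT livers. The SD of Hspa5 was 31.6 CPM in HKO livers and 375 CPM in WT livers, and 76.0 CPM in WT livers without replicate 4. For Hsp90b1 the SD was 194 CPM in HKO livers and 540 CPM in WT livers, and 140.1 CPM without WT replicate 4. Per kilobase of transcript, the most abundant members were chaperones, with 563 CPM for Hsp90b1, 378 CPM for Calr, 264 CPM for Pdia3 and 241 CPM for Hspa5 as WT means. Creld2 was the lowest of the 14, with 17.8 CPM, below Herpud1 with 114 CPM. Estimated counts were fractional, as they are where reads match more than 1 gene, in all 8 livers for Hspa5 and Dnajb9, in 7 for Canx, in 5 for Pdia4 and Herpud1, in 4 for Sel1l, in 2 for Xbp1 and in 1 for Syvn1, so the values of these members are less certain than those of the others.

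The wider pathway was described by lists of genes that are not members. Of 26 other folding factors tested, 1 rose and 1 fell in HKO livers, and the median log2 fold change was 0.036. DESeq2 called 6 of the 26, where it called 8.18% of all genes tested. Of the 26, 7 (26.9%) were without overlap, where 12.5% of all genes tested were. WT replicate 4 was the highest liver for 8 of the 26 (30.8%), and for 10.9% of all genes tested. Ppib, the ER cyclophilin, was at 160, 144, 117 and 168 CPM in WT and at 184, 193, 201 and 205 CPM in HKO livers, with a log2 fold change of 0.41 (SE 0.11, adjusted p = 0.0464, edgeR). This call was lost in limma-voom (adjusted p = 0.0523) and held in 1 of the 8 fits that left out a liver, the one without WT replicate 4. Fkbp14, a prolyl isomerase that acts on collagens, was at 10.6, 8.66, 9.65 and 8.54 CPM in WT and at 6.41, 5.79, 6.08 and 5.79 CPM in HKO livers. For Fkbp14 the log2 fold change was -0.63 (SE 0.13, adjusted p = 0.0169, edgeR), and the call was lost without WT replicate 1 (adjusted p = 0.0602).

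Of 32 other ATF4 target genes tested, 0 rose and 2 fell by edgeR, and DESeq2 and limma-voom called 3 each. Of all genes tested, DESeq2 called 8.18% and limma-voom 4.86%. Fgf21, a hormone that the liver secretes on fasting and stress, was at 1.90, 3.07, 1.54 and 1.97 CPM in WT and at 0.877, 0.154, 0.169 and 0.511 CPM in HKO livers, where replicate 2 was below the 3-count floor of its library. The log2 fold change was -2.30 (SE 0.47, adjusted p = 0.0184, edgeR). Atf5, a transcription factor that is itself translated under stress, was at 202, 231, 194 and 262 CPM in WT and at 171, 142, 148 and 163 CPM in HKO livers, with a log2 fold change of -0.51 (SE 0.11, adjusted p = 0.0192, edgeR). Both were without overlap. Each call was lost without WT replicate 2 (adjusted p = 0.0735 for both), and that of Atf5 also without HKO replicate 2 (adjusted p = 0.0516). The median over the list was -0.025, and WT replicate 4 was the highest liver for 9.38% of the list.

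In the other lists 0 genes were called by edgeR in either direction, and the 2 genes with the smallest p are named. Of all genes tested, 19.8% had an unadjusted p under 0.05. Of 21 other ERAD genes, 5 had an unadjusted p under 0.05, led by Os9, a lectin of the HRD1 complex (log2 fold change 0.25, adjusted p = 0.0974, and 0.0383 in DESeq2), and Man1b1, a mannosidase (-0.21, adjusted p = 0.16). Of 31 genes of translocation and early secretion, 3 did, with Ssr4, a subunit beside the translocon (0.29, adjusted p = 0.137), and Sec13, a COPII coat protein (-0.25, adjusted p = 0.206), first, and WT replicate 4 was the highest liver for 15 of the 31. Of 13 genes of the other eIF2 kinases and eIF2 itself, 0 did, and Eif2b2, a subunit of the exchange factor of eIF2, and Eif2ak2, the kinase PKR, had the smallest p (adjusted p = 0.351 and 0.518). Of 16 further transducers and effectors, 0 did, and the proapoptotic genes Bax and Bcl2l11 came first (adjusted p = 0.338 and 0.403). Of 17 cytosolic heat shock genes, 4 did, with the constitutive Hspa8 (0.26, adjusted p = 0.164) and the inducible Hspa1b (-0.69, adjusted p = 0.204) first. The medians of these 5 lists were 0.032, -0.0090, 0.027, -0.0033 and 0.020 on the log2 scale, in the same order. DESeq2 called 1 of the other ERAD genes and 0 of the genes of the last 4 lists. WT replicate 4 was the highest liver for 14.3%, 48.4%, 7.69%, 6.25% and 23.5% of these 5 lists, in the same order.

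The levels of cell type markers are given beside these results, and their part in them was not tested. Of 8 hepatocyte markers 4 were called higher and 0 lower in HKO livers (Hnf4a, Tat, Fgb and Serpina1c), and 1 to 3 of the 8 were called over the fits that left out 1 liver. Of all genes tested, 1.66% were called higher and 3.37% lower. The sums of the hepatocyte markers ran from 92090 to 125100 CPM in WT and from 84830 to 135900 CPM in HKO livers. Most of each sum was Alb, at 62300 to 96090 CPM in WT and 47060 to 98810 CPM in HKO livers. Of 9 stellate cell and fibroblast markers 2 were called lower, Col1a1 (log2 fold change -2.81) and Col3a1 (-1.87), and of 8 macrophage markers 1 was, Ccr2 (-0.81), which was called in 2 of the 8 fits that left out a liver. Of the tested markers of endothelial cells (7), lymphocytes (1), plasma cells (2), bile duct cells (3) and neutrophils (3), 0 were called by edgeR. The sums of the endothelial markers were 69.1 to 221 CPM in WT and 110 to 253 CPM in HKO livers, and WT replicate 4 was the lowest liver. Those of the macrophage markers were 89.8 to 226 CPM in WT and 71.0 to 208 CPM in HKO livers, those of the stellate markers 395 to 556 CPM and 323 to 437 CPM, and those of the lymphocyte markers 10.3 to 17.5 CPM and 13.4 to 20.4 CPM. The bile duct markers summed to 40.6 to 50.8 CPM in WT and 30.8 to 107.8 CPM in HKO livers, and the neutrophil markers to 0.909 to 4.08 CPM and 2.25 to 8.11 CPM. Among the WT livers, replicate 4 had the highest sum of neutrophil markers.

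Plasma cells are rich in ER and in the same chaperones. Their 5 markers summed to 121 to 137 CPM in WT and 111 to 166 CPM in HKO livers, nearly all of it Sdc1, which hepatocytes also express. Mzb1, a chaperone of plasma cells, was at 0 CPM in WT replicate 4 and at most 0.135 CPM in any liver, below the 3-count floor of each library. Jchain was at 3.94 CPM in WT replicate 4, where the other WT livers had 1.94 to 3.31 CPM, and up to 5.40 CPM in HKO livers. The sum of the plasma cell markers was 137 CPM in WT replicate 4, the highest WT liver, and 136 CPM in WT replicate 2. Near the floor, Pou2af1 was at 0.329 CPM in WT replicate 4, its highest WT liver, and Irf4 was at 0 CPM there.

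Finally, the members were searched for sites of the deleted microRNA. Mature miR-33-5p is encoded at chr15:82198127-82198147 (RefSeq, GRCm38.p6), and in its sequence the seed, bases 2 to 8, is in capitals.
miR-33-5p: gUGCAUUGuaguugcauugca
A 7-base site, which pairs either with bases 2 to 8 or with bases 2 to 7 followed by an A, was found in the longest annotated 3'UTR of 5 of 34 members (14.7%), against 16.2% of the 11536 tested genes with a 3'UTR. Dnajb11, Dnajc3 and Sel1l had the first kind and Ern1 and Atf6 the second, with log2 fold changes of 0.0049, 0.062, -0.25, 0.56 and -0.0021, and Xbp1 had none. The sites of Sel1l and Ern1 are shown, as the matched members with the largest fold changes, with the 7-base site in capitals, of which the last A in Ern1 does not pair with the seed. The site lies at chr12:91808797-91808803 for Sel1l and at chr11:106397478-106397484 for Ern1, both in the 3'UTR and on the minus strand. The Ern1 site lies beyond the 3' end of the gene as counted (chr11:106397620-106487797), in a longer annotated transcript.
Sel1l: gttagaccCAATGCAtggcaaaac
Ern1: tgaagaagaAATGCAAgatatatc
Neither member passed edgeR's test, and their estimates had opposite signs.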

How the data were processed

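RNA-Seq was performed on livers of 4 WT and 4 HKO mice. The authors deposited estimated counts per gene, from Partek's expectation-maximization quantification, not normalized; per the labels, reads were processed with STAR and Partek, and versions are not given in the sources used here. The labels name both rRNA depletion and a small RNA kit. Of the values 80.3% are whole, and 0 columns were unmapped. Coordinates are as listed (GRCm38). Estimated counts were rounded and tested with edgeR 4.0.16 in R 4.3.3 (TMM, minimum count 10, robust quasi-likelihood, Benjamini-Hochberg adjustment over 12395 genes). The standard error of a log2 fold change was its size over the root of the F statistic. Alternatives used DESeq2 1.42.0, limma-voom (limma 3.58.1), other scalings and filters, a fold change above 1.5, the replicate number as a block, and each liver left out. The models were tested on simulated counts. Floors cover counting error only. Elements and seed matches were searched in Python 3.11.15 with RefSeq promoters and the longest GENCODE M21 3'UTR of at least 50 bases. Protein sequences were not used here.

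The 34 members and all lists were chosen with earlier results of these data known. All members are named; of each other list, called genes (at most 4, by fold change) or, where 0 were called, the 2 with the smallest p are named, and single markers where a list had at most 2 called or a defining marker was at 0. Sequences and figures were chosen after the values were seen.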

Additional observations from a re-analysis of the deposited data

Results flagged for a closer look

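Of 96 groups of 4 livers examined (the 34 members and 14 named genes of the other lists, in each genotype), 8 had 1 liver so far from the other 3 that its gap exceeded Dixon's critical value, where chance alone flags about 1 in 20 groups. Creld2 was at 48.0 CPM in WT replicate 4, where the other WT livers had 13.6 to 18.8 CPM. Herpud1 was at 282 CPM in HKO replicate 1, against 237 to 244 CPM. Trib3 was at 9.53 CPM in HKO replicate 4, against 3.10 to 3.40 CPM. Of the genes of the other lists, Sec13 was at 30.1 CPM in HKO replicate 4 (35.2 to 35.7 CPM in the others), Eif2b2 at 6.98 CPM in WT replicate 2 (7.76 to 7.86 CPM) and Bax at 2.54 CPM in WT replicate 3 (3.49 to 3.64 CPM). Bcl2l11 was at 5.85 CPM in WT replicate 4 (7.19 to 7.47 CPM) and at 6.81 CPM in HKO replicate 4 (5.48 to 5.67 CPM). Over all genes tested, 1.12% had WT replicate 4 as far above the other WT livers.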

How the results depend on the processing

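The count of members called higher was 1 in every alternative except the replicate block and the fit without WT replicate 2, which gave 0 (0 to 1 over the fits without 1 liver). The fit without WT replicate 3 called Ern1 in place of Xbp1. The count called lower was 0 except with library totals (2, Sel1l and Atf3) and DESeq2 (1, Sel1l). The median log2 fold change of the members ran from -0.058 to 0.17 over the fits without 1 liver, the highest without WT replicate 4, and was -0.068 with library totals. Members without overlap numbered 3 to 5 over the sets without 1 liver (8.82% to 14.7%), where 14.4% to 19.3% of all genes tested were; Ern1 and Manf were added without WT replicate 3, Hspa5 and Herpud1 without WT replicate 4, and Eif2ak3 without HKO replicate 3. The count of called genes in the other lists, 4, was 10 in DESeq2 and 1 to 6 over the fits without 1 liver (1 without WT replicate 2, 2 without WT replicate 1 or HKO replicate 2). Promoters of members with ERSE numbered 15 where 1 mismatch was allowed, against 1.5% of all promoters. The alternatives for the other lists, the legacy quasi-likelihood method and the fit without both WT replicate 4 and HKO replicate 1 were chosen after seeing the data. The cause of these changes was not tested.

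No likeness of same-numbered livers was seen: their deviations correlated at -0.062, 0.012, -0.085 and -0.15, and 0 of 4 WT livers correlated best with the HKO liver of its own number. Such weak correlations cannot show that the numbers mark no shared litter. With the replicate block 456 genes were called in place of 624, 0 members were called, and Xbp1 was at 0.65 (adjusted p = 0.0816, edgeR).

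Estimates near 0 changed sign. With library totals the log2 fold change of Calr was -0.043, of Canx -0.018, of Pdia6 -0.057, of Dnajb11 -0.078, of Dnajc3 -0.024, of Derl2 -0.019 and of Ppp1r15b -0.053. With limma-voom Hyou1 was at 0.026, Creld2 at 0.087 and Trib3 at -0.057, and with the replicate block Hyou1 was at 0.029 and Creld2 at 0.083. Atf6 was at 0.0016 with RLE scaling, 0.0010 in DESeq2 and 0.0003 without a filter, and Dnajb11 was at -0.0004 with at least 10 counts in every liver. Without both WT replicate 4 and HKO replicate 1 the values were 0.22 for Hspa5, 0.035 for Hsp90b1, 0.14 for Pdia3, 0.059 for Sdf2l1, 0.19 for Hyou1, 0.41 for Creld2, 0.0073 for Manf, 0.036 for Syvn1, 0.010 for Derl1 and -0.15 for Asns. Over the fits without 1 liver, the ranges of members that changed sign were -0.23 to 0.25 for Hspa5, -0.24 to 0.13 for Hsp90b1, -0.042 to 0.21 for Calr, -0.18 to 0.16 for Pdia3, -0.054 to 0.17 for Pdia6, -0.26 to 0.15 for Sdf2l1, -0.12 to 0.24 for Hyou1, -0.27 to 0.49 for Creld2, -0.11 to 0.045 for Dnajb9, -0.073 to 0.16 for Dnajb11 and -0.033 to 0.19 for Dnajc3. They were -0.29 to 0.097 for Syvn1, -0.0049 to 0.14 for Derl2, -0.76 to 0.22 for Derl3, -0.089 to 0.060 for Atf6, -0.020 to 0.25 for Ddit3, -0.37 to 0.35 for Trib3, -0.094 to 0.97 for Asns and -0.13 to 0.51 for Chac1. For the 48 named genes, 752 of 833 values kept their direction and their side of the threshold.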
